A study of Mus musculus with 8 samples.

Results

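The genes described here are 8 genes of the death-receptor branch of the tumour necrosis factor family, chosen by symbol: Tnfsf12 (TWEAK), Tnfrsf12a (Fn14), Tnfsf10 (TRAIL), Tnfrsf10b (DR5), Tnfrsf11b (osteoprotegerin), Fas, Tnfrsf21 (DR6) and Casp8. They were looked up among the 19505 genes that had a probe with only 1 symbol in the platform annotation. Of the 8 genes, 7 were found, each on 1 such probe. Probes annotated with several symbols were assigned to no gene. Tnfsf12, the ligand of Tnfrsf12a, had no probe annotated with its symbol alone and was not analysed here. Kidney total RNA came from 4 NZBWF1 mice 28 weeks old and 4 NZBWF1 mice 8 weeks old. NZBWF1 mice, crosses of the NZB strain with the NZW strain, spontaneously acquire lupus-like autoimmunity and glomerulonephritis with age. The groups therefore differ in age alone as far as the labels say, and no treatment, other strain or sex is given. The Clariom S Mouse array is a 1-colour Affymetrix design, and each array was taken as 1 mouse. Replicate numbers, 6 to 9 at 28 weeks and 1 to 4 at 8 weeks, were taken from the titles. The unit is log2 after robust multi-array averaging (RMA), with the base taken as 2 because none is stated, so a difference of 1 is a 2-fold difference. RMA compresses folds and gives no detection call.

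Members of this family pass signals of survival, inflammation or death from the cell surface. Death receptors such as Fas and DR5 carry an intracellular death domain that recruits the adaptor FADD and the protease caspase-8, which starts the caspase cascade. Fn14 has no death domain: after binding TWEAK it recruits TRAF adaptors and activates NF-kappa-B, and in injured kidney tubules it is known as an inducible receptor that promotes inflammation. Caspase-8 also restrains necroptosis, a form of cell death carried out by RIPK3 and MLKL.

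The arrays of one age were not alike. On the first principal component of all probes 28-week replicate 7 scored -12.9, within the range of the 8-week arrays (-39.5 to -7.66), while replicates 6, 8 and 9 scored 31.8 to 59.9. On the second component 8-week replicate 1 stood apart, at 65.1. The difference of each of the 7 genes is therefore given with all 8 arrays and without replicate 7. The proximal tubule markers measured (10 of 10 listed) were all among the brightest probes, at or above the 96.4th percentile of probe means. The B and plasma cell list had 4 of its 5 measured markers below the 20th percentile and the T and NK cell list 6 of 12, and no marker of any list can be called absent, because RMA values never reach 0. In whole-kidney RNA a change in the number of cells of a type and a change in RNA per cell cannot be told apart.

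With all 8 arrays none of the 7 genes passed the threshold, an adjusted p under 0.05 in limma over all 22206 probes with Benjamini-Hochberg adjustment, which 0.968% of probes passed. At an unadjusted p under 0.05 there were 4 of 7, against 15% of all probes, and 3 of 7 by an unmoderated test with unequal variances, against 11.6% of all probes by that test. The 28-week arrays lay wholly above or below the 8-week arrays in 3 of the 7 genes, against 8.71% of probes. They lay above in Tnfrsf12a and Casp8 (4.38% of probes) and below in Tnfrsf21 (4.33% of probes). The log2 difference, 28 weeks minus 8 weeks, was positive in 6 genes and negative in 1, Tnfrsf21. Its median over the 7 genes was 0.42, beside -0.01 over all probes. Without 28-week replicate 7, 4 of the 7 genes passed, against 5.57% of all probes. Tnfrsf12a, Tnfsf10 and Casp8 were higher at 28 weeks (3.63% of all probes), and Tnfrsf21 was lower (1.95%). Leaving that array out was a choice made with the data known. Replicate 7 was the 28-week mouse nearest to the 8-week mean in 5 of the 7 genes, these 4 included. Leaving it out therefore had to widen the differences of those genes, and the calls without it are no separate support.

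**Figure D1:**
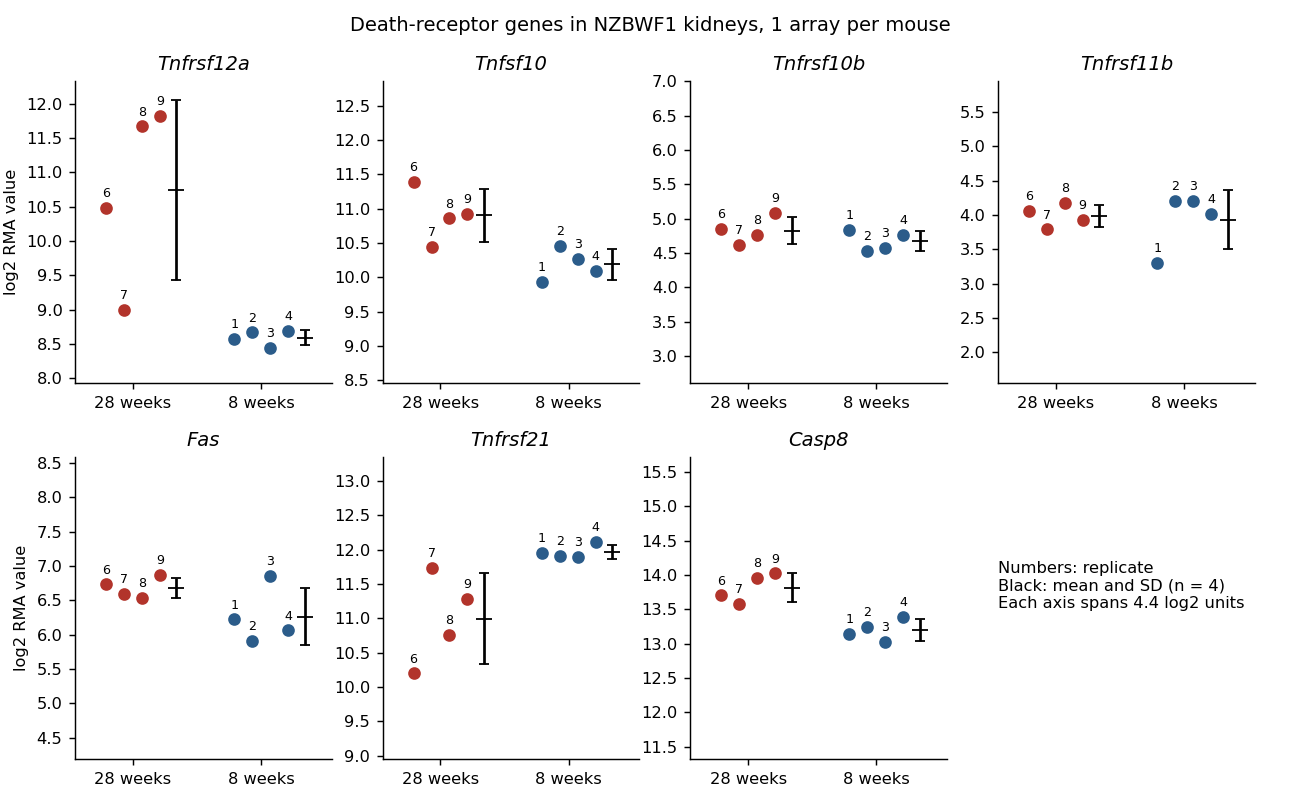
Log2 RMA value (vertical axis, the same span of log2 units in every panel) of each of the 7 measured genes in each mouse, with the 28-week mice (red) left of the 8-week mice (blue), the replicate number above each point, and the mean and SD in black (n = 4 at each age). Tnfrsf12a in 28-week replicates 6, 8 and 9 sits between 10.48 and 11.82, with replicate 7 at 9.0 and the 8-week mice between 8.44 and 8.69.

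Tnfrsf12a encodes Fn14, the receptor of TWEAK, and had the largest difference of the 7 genes. Its log2 value was 10.48, 9.0, 11.67 and 11.82 in 28-week replicates 6, 7, 8 and 9, against 8.58, 8.67, 8.44 and 8.69 in 8-week replicates 1 to 4. The 8-week mice lay within a narrow band, all 28-week mice lay above it, and replicate 7 lay closest to it. The means were 10.74 ± 1.31 at 28 weeks and 8.60 ± 0.11 at 8 weeks (SD, n = 4 each), a log2 difference of 2.15 (SE 0.52, 4.43-fold, limma adjusted p = 0.0849). A difference of this size or more, in either direction, was seen in few probes: the gene stood at the 99.6th percentile of absolute differences. Without replicate 7 the gene rose by 2.73 on the log2 scale (6.63-fold, adjusted p = 0.000856). The summed markers of macrophages and monocytes were also higher in all 4 28-week mice than in any 8-week mouse, and least so in replicate 7. Of 14 listed, 13 were measured, the difference was positive in all 13, and none was past the threshold. The log2 of their summed signal was 15.12, 11.9, 14.15 and 13.83 in 28-week replicates 6, 7, 8 and 9, against 10.93 to 11.64 in the 8-week mice. The marker sum was highest in replicate 6, whereas Tnfrsf12a was highest in replicate 9 and lower in replicate 6 than in 8 and 9. The part of these cells in the Tnfrsf12a difference was not tested.

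Tnfsf10 encodes TRAIL, a death ligand that interferons induce. It was at 11.39, 10.44, 10.86 and 10.92 in 28-week replicates 6, 7, 8 and 9, against 9.93, 10.46, 10.27 and 10.10 in the 8-week mice. Only replicate 7 of the 28-week mice fell inside the 8-week range, just below 8-week replicate 2. The means were 10.90 ± 0.39 at 28 weeks and 10.19 ± 0.23 at 8 weeks (SD, n = 4 each), a log2 difference of 0.71 (SE 0.21, adjusted p = 0.134). Without replicate 7 Tnfsf10 rose by 0.87 on the log2 scale (1.82-fold, adjusted p = 0.0329). That call ended when 8-week replicate 1 was left out as well. Replicate 6 had the highest Tnfsf10 of the 28-week mice and also their highest summed signal of macrophage, T and NK, B and plasma cell, endothelial, and fibroblast and mural markers. The same held for the podocyte list (11.76) and the thick ascending limb and distal tubule list (19.42). In the collecting duct list replicates 6 and 7 were level (13.81), and in the proximal tubule list replicate 7 was higher (20.44 against 20.17). The log2 endothelial sum was 15.18, 14.55, 14.56 and 14.87 in 28-week replicates 6, 7, 8 and 9, against 14.32 to 14.65 at 8 weeks, so its groups overlapped, while the macrophage sum was above the 8-week range in all 4 28-week mice. None of the macrophage, T and NK, B and plasma cell, endothelial, or fibroblast and mural markers passed the threshold. The part of any marker list in the Tnfsf10 difference was not tested.

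Of the 7 genes, Tnfrsf10b and Tnfrsf11b encode receptors that bind TRAIL, and neither showed a difference that could be told from the spread. Tnfrsf10b encodes DR5, the death-domain TRAIL receptor of the mouse. It was at 4.85, 4.62, 4.76 and 5.08 in the 28-week mice and at 4.84, 4.53, 4.58 and 4.76 in the 8-week mice. The ranges overlapped, and the log2 difference of 0.15 had a 95% interval from -0.18 to 0.48 (adjusted p = 0.723). Without replicate 7 it was 0.22 (adjusted p = 0.575). Tnfrsf11b encodes osteoprotegerin, a secreted decoy receptor for TRAIL and for the bone cytokine RANKL. It was at 4.06, 3.79, 4.17 and 3.93 in the 28-week mice and at 3.30, 4.2, 4.2 and 4.02 in the 8-week mice. Replicate 1 held the lowest value of the 8-week mice, and the other 3 overlapped the 28-week mice. The difference was 0.06 (95% interval -0.41 to 0.53, adjusted p = 0.941), or 0.12 without 28-week replicate 7 (adjusted p = 0.866), and it turned to -0.15 without 8-week replicate 1 and to -0.00375 with each array centred on the common median, so no direction is given. Both probes were dim, at the 32.7th and 17.5th percentiles of probe means, where RMA compresses differences most.

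Fas encodes the death receptor that Fas ligand engages. It was at 6.73, 6.59, 6.54 and 6.87 in 28-week replicates 6, 7, 8 and 9, against 6.22, 5.91, 6.85 and 6.06 in 8-week replicates 1 to 4. Replicate 3 of the 8-week mice was as high as the 28-week mice, and the other 3 were lower than all of them. The log2 difference was 0.42 (95% interval -0.03 to 0.88, adjusted p = 0.379), and it was 0.45 without replicate 7 (adjusted p = 0.375). Its ligand gene Fasl, which is outside the rule for named genes and was chosen after its values were seen, was at 3.86, 3.62, 3.86 and 4.04 at 28 weeks and at 3.56, 3.81, 4.25 and 4.13 at 8 weeks. Those groups overlapped (adjusted p = 0.884), on a dim probe (percentile 16.3 of probe means). Fas ligand is a gene of activated T and NK cells. The log2 sum of the 12 measured T and NK markers was 8.48 to 9.17 at 28 weeks and 8.3 to 8.51 at 8 weeks, with 11 of 12 differences positive and none past the threshold.

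Tnfrsf21 encodes DR6, a death-domain receptor studied mostly in neurons and lymphocytes. It was the only one of the 7 genes with a lower mean at 28 weeks. Its log2 value was 10.20, 11.74, 10.76 and 11.29 in 28-week replicates 6, 7, 8 and 9, against 11.96, 11.91, 11.90 and 12.11 in 8-week replicates 1 to 4. The 8-week mice were close together, all 28-week mice were lower, and replicate 7 was the nearest to them. The means were 11.00 ± 0.67 at 28 weeks and 11.97 ± 0.10 at 8 weeks (SD, n = 4 each), a log2 difference of -0.97 (SE 0.28, 1.96-fold lower, adjusted p = 0.132). Without replicate 7 the gene fell by 1.22 on the log2 scale (2.33-fold lower, adjusted p = 0.0169). All 10 proximal tubule markers also had lower means at 28 weeks, and the organic anion transporter gene Slc22a6 was the 1 past the threshold (adjusted p = 0.0313). The log2 of their summed signal was 20.17, 20.44, 20.09 and 20.01 in 28-week replicates 6, 7, 8 and 9, against 20.49 to 20.57 at 8 weeks. The marker sum was lowest in replicate 9, and Tnfrsf21 was lowest in replicate 6. Of the 6 markers of the thick ascending limb and distal tubule, 3 had a positive difference. The log2 of the summed signal of all 6 was 19.19 to 19.42 at 28 weeks and 19.01 to 19.34 at 8 weeks. Only Pvalb, which encodes the calcium-binding protein parvalbumin, passed the threshold in that list. It was at 8.55, 11.02, 9.22 and 8.97 in the 28-week mice, against 12.48, 11.49, 11.68 and 11.81 in the 8-week mice (adjusted p = 0.0462). The part of these marker changes in the Tnfrsf21 difference was not tested.

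Casp8 encodes caspase-8, the protease that death receptors activate. It was at 13.70, 13.58, 13.96 and 14.02 in 28-week replicates 6, 7, 8 and 9, against 13.14, 13.24, 13.02 and 13.39 in 8-week replicates 1 to 4. The groups did not overlap, and here replicate 7 was 0.38 above the 8-week mean, much nearer to the other 28-week mice than it was in Tnfrsf12a. The means were 13.81 ± 0.21 at 28 weeks and 13.20 ± 0.16 at 8 weeks (SD, n = 4 each), a log2 difference of 0.62 (SE 0.15, 1.53-fold, adjusted p = 0.0923). Without replicate 7 Casp8 rose by 0.70 on the log2 scale (1.62-fold, adjusted p = 0.0374), a call that ended when 8-week replicate 1 was left out as well. Leukocytes also express Casp8, and the macrophage marker sum given with Tnfrsf12a was higher in all 4 28-week mice, replicate 7 included, than in any 8-week mouse. Its part in the Casp8 difference was not tested.

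**Figure D2:**
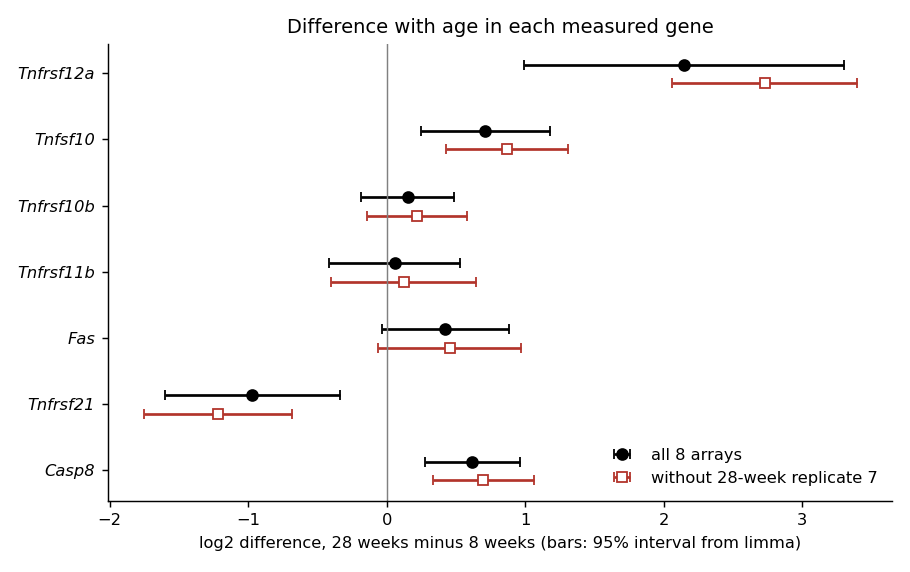
Log2 difference, 28 weeks minus 8 weeks (horizontal axis), of each measured gene with its 95% interval from limma, for all 8 arrays (black circles) and without 28-week replicate 7 (red squares). Tnfrsf12a lies at 2.15 and 2.73, Tnfrsf21 at -0.97 and -1.22, and the intervals of Tnfrsf10b, Tnfrsf11b and Fas include 0 in both fits.

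Replicate 7 was outside the 8-week range in 3 of the 7 genes, Tnfrsf12a, Tnfrsf21 and Casp8. In 5 of the 7 genes it was the 28-week mouse nearest to the 8-week mean. Its distance from that mean was 0.41 in Tnfrsf12a, 0.25 in Tnfsf10 and -0.23 in Tnfrsf21. The order of the other 28-week mice was not shared between genes: Tnfsf10 was highest and Tnfrsf21 lowest in replicate 6, while Tnfrsf12a, Casp8, Fas and Tnfrsf10b were highest in replicate 9. The SD was larger at 28 weeks in 5 of the 7 genes, against 42.2% of all probes.

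The sequences before the start sites of the 3 genes whose groups did not overlap are shown to compare what precedes genes that differed in opposite directions. RefSeq windows of GRCm38.p6 were found for 5 of the 8 genes (Tnfrsf12a, Fas, Tnfsf10, Tnfrsf21 and Casp8), and the 250 bases before the start are given 5′ to 3′ on the gene's strand. Capitals mark GC boxes, GGGCGG on either strand, the element that Sp1-type factors bind. The windows are chr17:23677450-23677699 on the minus strand for Tnfrsf12a, chr17:43016305-43016554 on the plus strand for Tnfrsf21 and chr1:58802252-58802501 on the plus strand for Casp8.
Tnfrsf12a: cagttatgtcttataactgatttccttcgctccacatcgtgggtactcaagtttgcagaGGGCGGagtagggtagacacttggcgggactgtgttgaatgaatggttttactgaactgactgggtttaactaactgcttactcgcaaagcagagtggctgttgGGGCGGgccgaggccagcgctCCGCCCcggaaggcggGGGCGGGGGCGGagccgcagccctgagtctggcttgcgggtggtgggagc
Tnfrsf21: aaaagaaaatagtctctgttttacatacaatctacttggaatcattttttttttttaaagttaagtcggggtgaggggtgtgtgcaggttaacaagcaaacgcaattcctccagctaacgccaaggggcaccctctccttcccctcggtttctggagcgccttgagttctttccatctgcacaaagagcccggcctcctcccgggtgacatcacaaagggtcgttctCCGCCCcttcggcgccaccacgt
Casp8: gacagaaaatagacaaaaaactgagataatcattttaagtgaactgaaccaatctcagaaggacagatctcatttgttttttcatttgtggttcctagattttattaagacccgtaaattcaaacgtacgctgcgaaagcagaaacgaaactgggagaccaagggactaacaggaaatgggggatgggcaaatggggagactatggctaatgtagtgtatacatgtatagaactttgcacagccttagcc
The Tnfrsf12a window held 5 GC boxes, the Tnfrsf21 window 1 and the Casp8 window none, and 32.7% of the 32851 promoter windows of the same length held at least 1. Their GC contents were 58.8%, 50.4% and 39.6%, where all windows had a median of 52.4%. None of these 3 windows held the AP-1 motif TGANTCA (6.7% of all windows), the GAS motif TTCNNNGAA (7%), the NF-kappa-B consensus (3.9%) or the serum-response CArG box (1.5%), each searched on both strands and on its own, overlaps allowed. The Fas window, not shown, held 1 AP-1 and 1 GAS motif and 1 GC box, and the Tnfsf10 window none of the 5 motifs. A match describes letters only, and the array measured no binding at these windows.

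The other genes of the pathway were grouped in 6 lists with 70 genes, of which 64 were measured. The lists were written with earlier results of these data known. With all 8 arrays 2 of the 64 passed the threshold, both higher at 28 weeks, against 0.968% of all probes in either direction, and 46 differences were positive, with a median of 0.18 beside -0.01 over all probes. The 2 were Ripk3 and Vcam1. Their number was 0 when any 1 of the 8-week replicates 1 to 4 or the 28-week replicates 6, 8 and 9 was left out, and 16 of 64 without 28-week replicate 7, where 5.57% of all probes passed. Of the 16, 15 were higher (3.63% of all probes) and 1 lower (1.95%).

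**Figure D3:**
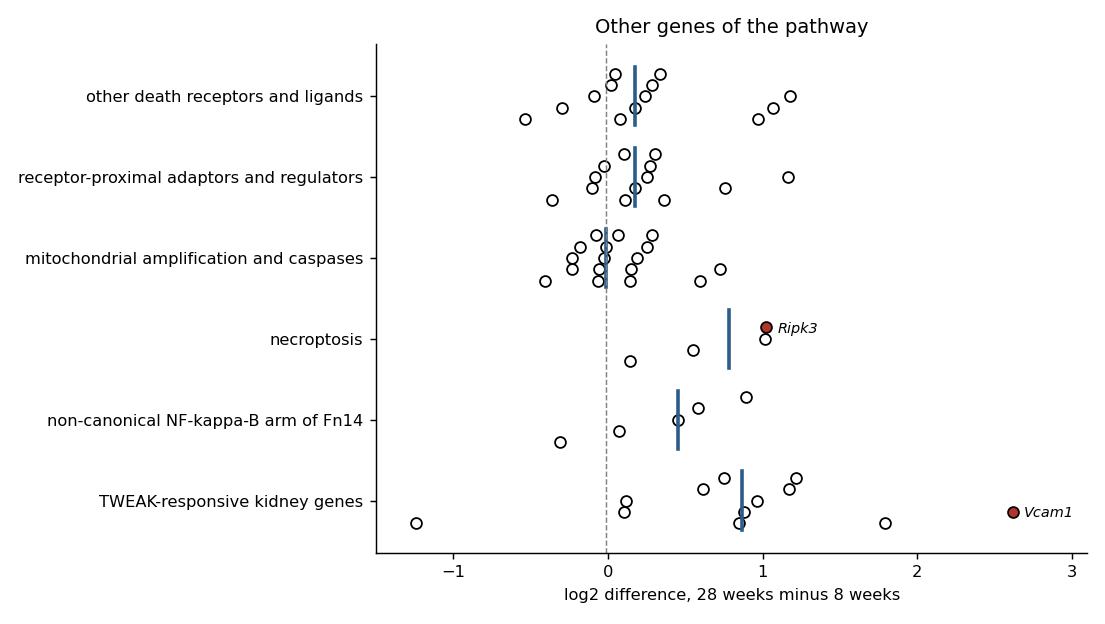
Log2 difference, 28 weeks minus 8 weeks (horizontal axis), of each of the 64 other measured pathway genes (circles, spread vertically within a list for legibility), grouped by list. Red circles passed an adjusted p under 0.05 (Ripk3 and Vcam1), blue bars are list medians, and the dashed line is the median of all probes, -0.01; the highest list medians are those of the TWEAK-responsive genes (0.86) and of necroptosis (0.78).

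Among the 4 necroptosis genes Ripk3, which encodes the kinase that triggers this form of death, passed the threshold, as 0.968% of all probes did. That call ended when any 1 array other than 28-week replicate 7 was left out. Ripk3 was at 5.87, 5.50, 5.87 and 5.94 in 28-week replicates 6, 7, 8 and 9, against 4.42, 4.97, 4.94 and 4.75 in 8-week replicates 1 to 4. Replicate 7 was above every 8-week mouse. The log2 difference was 1.02 (SE 0.17, 2.04-fold, adjusted p = 0.0309), and 1.12 without replicate 7 (adjusted p = 0.00535). Mlkl, the membrane-permeabilising effector below Ripk3, was at 8.22, 7.06, 8.48 and 8.97 at 28 weeks and at 7.06, 7.17, 6.89 and 7.54 at 8 weeks (adjusted p = 0.189). Its replicate 7 lay among the 8-week mice, and without that array Mlkl rose by 1.39 on the log2 scale (adjusted p = 0.00669). Zbp1, an interferon-induced sensor that can activate Ripk3, is outside the rule for named genes and was chosen after its values were seen. It had a log2 difference of 0.55 with all arrays (adjusted p = 0.262) and rose by 0.77 without replicate 7 (adjusted p = 0.0239). The macrophage marker sum was higher in all 4 28-week mice, replicate 7 included, than in any 8-week mouse, and its part in these differences was not tested.

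Of 12 genes known to respond to TWEAK in kidney cells, 1, the adhesion molecule gene Vcam1, passed with all arrays. Over all probes 0.446% passed as higher at 28 weeks. The Vcam1 call ended when any 1 array other than 28-week replicate 7 was left out. A positive difference was seen in 11 of the 12 genes, with a list median of 0.86 beside -0.01 over all probes. Vcam1 was at 10.17, 8.01, 10.44 and 10.32 in 28-week replicates 6, 7, 8 and 9, against 7.43, 6.75, 6.85 and 7.44 in the 8-week mice (log2 difference 2.62, SE 0.48, adjusted p = 0.0423). The chemokine gene Cxcl10 was at 7.09, 5.62, 7.33 and 6.66 at 28 weeks and at 5.34, 5.16, 4.4 and 4.63 at 8 weeks (adjusted p = 0.0501). As in Tnfrsf12a, replicate 7 was above the 8-week mice in both genes and the lowest of the 28-week mice. Without replicate 7, 6 of the 12 were higher and 1 lower, against 3.63% and 1.95% of all probes. The list and the array left out were both chosen with results of these data known, so these counts are no independent support. Vcam1 then rose by 3.19 on the log2 scale (adjusted p = 9.4e-05) and Cxcl10 by 2.14 (adjusted p = 0.00163). The lower one, chosen for mention after its values were seen, was Kl, the gene of the tubular anti-ageing protein klotho, at 14.44, 15.82, 14.77 and 14.38 in the 28-week mice, against 15.79, 16.15, 16.27 and 16.15 in the 8-week mice (adjusted p = 0.0810 with all arrays and 0.00108 without replicate 7). Interferons and TNF also act on several of these genes, so the list is not specific to TWEAK. In the non-canonical NF-kappa-B arm that Fn14 activates none of the 5 measured genes passed in either fit. The subunit gene Nfkb2 was at 6.10, 5.37, 6.25 and 6.36 at 28 weeks and at 5.65, 5.14, 4.24 and 5.47 at 8 weeks (adjusted p = 0.207). Its partner Relb had a log2 difference of 0.46 (adjusted p = 0.211).

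No other list had a gene past the threshold with all arrays. Among 13 other death receptors and ligands Tnfrsf1a, which encodes the main TNF receptor, was at 10.33, 10.18, 11.03 and 11.10 at 28 weeks and at 9.71, 9.70, 8.84 and 9.68 at 8 weeks (log2 difference 1.18, adjusted p = 0.0776). The groups did not overlap. Tnfsf15, the gene of the cytokine TL1A, was lower in all 28-week mice than in any 8-week mouse, at 6.67, 6.42, 6.64 and 6.54 against 7.28, 7.18, 6.85 and 7.11 (log2 difference -0.54, adjusted p = 0.106, and -0.49 without replicate 7, adjusted p = 0.13). Without replicate 7 Tnf, Tnfrsf1a and Tnfrsf23 passed, all 3 higher, where 3.63% of all probes did; Tnf and Tnfrsf23 are named after their values were seen. Of 13 receptor-proximal adaptors and regulators Traf2, which encodes an adaptor of Fn14 and TNF receptors, and Birc3, which encodes its partner ubiquitin ligase cIAP2, had the smallest p. Birc3 was at 11.32, 9.15, 11.12 and 10.95 in 28-week replicates 6, 7, 8 and 9, against 9.87, 9.55, 9.20 and 9.27 in the 8-week mice (adjusted p = 0.214). Replicate 7 was below all 8-week mice in Birc3, and without it the gene rose by 1.66 on the log2 scale (adjusted p = 0.00147). Traf2 had a log2 difference of 0.76 (adjusted p = 0.170) and rose by 0.96 without replicate 7 (adjusted p = 0.0341). Among 17 genes of mitochondrial amplification and caspases the smallest p were those of the survival genes Bcl2 (log2 difference 0.60, adjusted p = 0.117) and Mcl1 (0.72, adjusted p = 0.13). The list's median difference was -0.01, the same as that of all probes, and without replicate 7 only Mcl1 passed (adjusted p = 0.0229).

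The genes whose pattern was most like those of Tnfrsf12a and Tnfrsf21, the 2 members with the largest SD over the 8 arrays (1.43 and 0.68), were found by distance. The distance is the root mean square, over the 8 arrays, of the difference between 2 profiles, each minus its own mean, and 18534 named genes were compared. Nearest to Tnfrsf12a were Tgfbi (0.32), which encodes a matrix protein induced by TGF-beta, the annexin gene Anxa2 (0.34), the metalloproteinase inhibitor gene Timp1 (0.35), Bcl3 (0.37), which encodes an atypical I-kappa-B protein, and the mitotic kinesin gene Kif11 (0.37). Of these Anxa2 passed the threshold with all arrays (adjusted p = 0.0426), and the others had adjusted p of 0.083 to 0.192. Nearest to Tnfrsf21 were Cwh43 (0.11), the monocarboxylate transporter genes Slc16a9 (0.17) and Slc5a8 (0.19), Crym (0.23), which encodes a thyroid hormone-binding protein, and the Notch ligand gene Dll4 (0.24). None of these 5 passed, with adjusted p of 0.0909 to 0.138. All profiles share the same 8 arrays and their 2 age groups, so a short distance says no more than that the values moved alike in these mice.

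**Figure D4:**
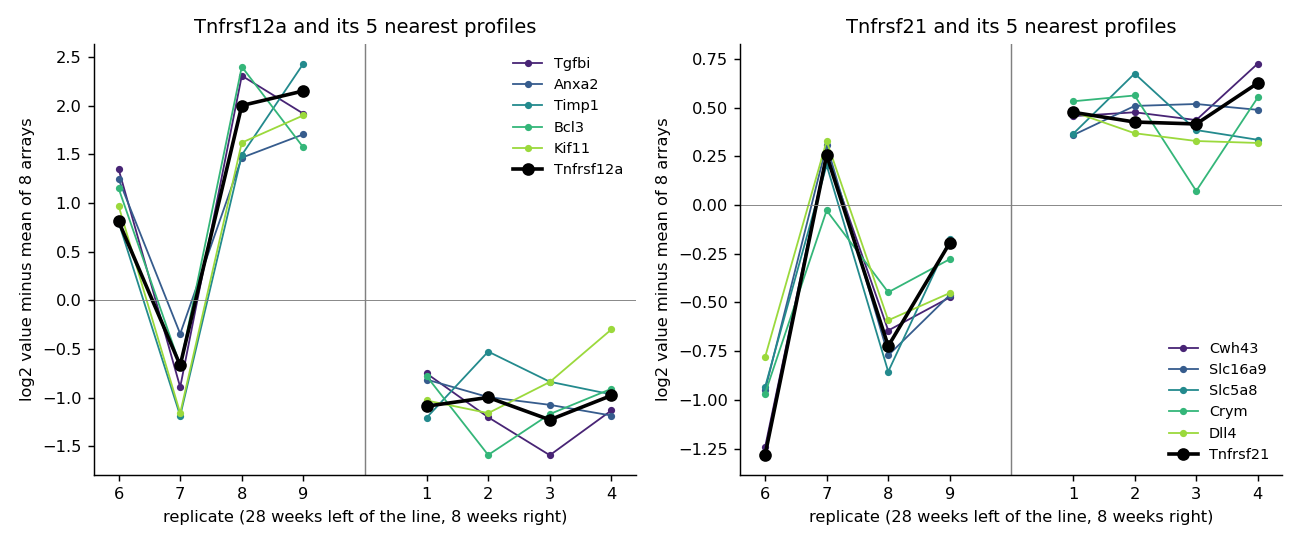
Log2 value minus the gene's mean over the 8 arrays (vertical axis) by replicate, 28-week mice left of the grey line and 8-week mice right of it, for Tnfrsf12a and Tnfrsf21 (black) and the 5 genes nearest to each (colours); lines join the arrays of one age and imply no order. The Tnfrsf12a profiles are highest in 28-week replicates 8 and 9 and the Tnfrsf21 profiles are lowest in 28-week replicate 6, and replicate 7 lies nearest to the 8-week mice in both panels.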

How the data were processed

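The authors deposited 1 table of log2 expression values for 22206 probes and 8 samples, made with RMA per the submitters' processing notes; which software and settings is not given in the sources used here. Base 2 was assumed for the logarithm, as is usual for RMA, and fits the deposited values, which span 2.31 to 19.89. Array medians lay between 5.98 and 6.14. Biotinylated cRNA was made from Trizol-extracted RNA, per the labels' protocols. Groups and replicate numbers came from the sample titles, and the numbers are not shared between ages. Each array was taken as 1 mouse. No batch was recorded in the sources used here. The number of arrays limits the precision.

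Probes with no symbol or with several symbols in the platform annotation were treated as unnamed (2634 together), and the brightest named probe stood for a gene. Every probe was tested, without a filter, with lmFit and eBayes in limma 3.58.1 (R 4.3.3), for 28 weeks minus 8 weeks, p-values adjusted over all probes by Benjamini-Hochberg and a call at 0.05. No set test was run. The members, lists and alternatives were chosen with earlier results of these data known. All members are named. From each pathway list the text names the genes past the threshold and the 2 with the smallest p, from each marker list up to 2 genes past it, and for the 2 most variable members the 5 nearest profiles; genes named outside this rule are marked as such. Alternatives were 3 other scalings, a filter on dim probes, other variance models and tests, array weights, and arrays left out. The code was tested on simulated data. Tables and figures used Python 3.11.15.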

Additional observations from a re-analysis of the deposited data

How the results depend on the processing

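No paired analysis was possible because the ages share no replicate number. Of the 7 genes, none passed with all arrays under the 3 other scalings, the unequal-variance test or treat against a log2 difference of 0.5, and none of the 5 that a filter on dim probes kept (Tnfrsf10b and Tnfrsf11b were left out by it). The count was 1 (Casp8, adjusted p = 0.0479) with trended robust eBayes, 2 with array weights (Tnfrsf12a and Casp8), 2 without both 8-week replicate 1 and 28-week replicate 7 (Tnfrsf12a and Tnfrsf21), and 0 to 4 when 1 array was left out, with 4 only without 28-week replicate 7. The exact two-sided permutation test gave an unadjusted p = 0.0286, the smallest that 4 against 4 arrays allow, for Tnfrsf12a, Tnfrsf21 and Casp8. That test gives this value whenever the groups do not overlap, as in 8.71% of all probes, so it only restates that separation. The alternatives run kept the sign of every gene but Tnfrsf11b, which was -0.00375 with arrays centred on the median, -0.0243 with array weights, -0.00333 without 28-week replicate 8, -0.0867 without both arrays, and -0.15 to 0.15 when 1 array was left out. Of the 64 other pathway genes, 4 passed with arrays centred on ribosomal protein genes, 4 of the 53 kept when dim probes were left out, 5 with trended robust eBayes, 10 with array weights, 16 without both arrays, 0 with the unequal-variance test (16 at an unadjusted p under 0.05), 0 with treat (8 unadjusted), and 0 to 16 with 1 array left out. Over all probes the 215 calls became 399, 873, 0 (2568 unadjusted) and 16 under trended robust eBayes, array weights, the unequal-variance test and treat, 1384 without both arrays, and 25 to 1237 with 1 array left out. They were 241 of 22206 with arrays centred on ribosomal protein genes and 275 of 14804 with dim probes left out. The cause of these changes was not tested. Dim probes (Tnfrsf11b, Tnfrsf10b) limit what a difference near 0 can show.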
